A study of Mus musculus with 6 samples.

Results

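RNA of crude heart mitochondria was sequenced in 6 libraries, and 9 nuclear genes of the mitochondrial stress response were followed in them: the transcription factors Atf4, Atf5, Atf3 and Ddit3, the stress effectors Trib3, Chac1 and Sesn2, and the secreted factors Gdf15 and Fgf21. They were chosen by name with earlier results of these data known, so that shares over all genes given beside them are a description. All 9 were found by their mouse Ensembl identifiers among 39142 nuclear genes of the count files. Control mice (L/L, n = 3) carried Polrmt alleles with loxP sites around exon 3 and no cre. Knockout mice (L/L, cre, n = 3) carried the same alleles and cre under the muscle creatine kinase promoter, which acts in heart and skeletal muscle, so that other cells of the heart were not targeted. All mice were C57BL/6N and 3 to 4 weeks old. The labels give the genotypes as Polrmt +/+ and Polrmt -/-, and each library is taken as 1 mouse. POLRMT is the RNA polymerase of mitochondria, and the series asks what its loss does to mitochondrial gene expression and replication priming.

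The integrated stress response is the route by which cells report trouble in mitochondria, the endoplasmic reticulum or amino acid supply to the nucleus. Kinases phosphorylate the translation factor eIF2, general translation slows, and the mRNAs of a few factors, ATF4 and ATF5 among them, are translated more because of upstream reading frames in their leaders. ATF4 pairs with other leucine zipper proteins on composite C/EBP-ATF elements. It induces genes for amino acid supply, for the stress effectors TRIB3 and CHAC1, and for the hormones GDF15 and FGF21. These hormones are called mitokines because mitochondrial defects of muscle raise them in the blood.

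The composite element, searched here as TGATGNAA on both strands, was present near the RefSeq start of 4 of the 9 genes, and these stretches are shown because they are the sites through which such genes can share a regulator. Windows ran from 250 bases before to 50 bases after each start (GRCm38.p6), and Atf5 and Gdf15 had more than 1 start, so that 4 of 11 windows held the element, against 3.97% of all 32851 windows. Atf3, Chac1 and Fgf21 carried the same letters, TTGCATCA, which is the element on the opposite strand, beginning 110, 193 and 139 bases before the start. In Trib3 the match, TTACATCA, began 14 bases past the RefSeq start. The GENCODE gene of Trib3 begins further on, at chr2:152344032 on the minus strand, so that the match lies before that start. The GENCODE gene of Atf3 begins far before its RefSeq start, at chr1:191218039 on the minus strand, so that the match lies within that gene. Capitals mark the match in the sequences below, which run 5′ to 3′ on the strand of the gene, from 250 to 51 bases before the start for Atf3 (chr1:191183384-191183583, minus strand), Chac1 (chr2:119350992-119351191, plus strand) and Fgf21 (chr7:45615541-45615740, minus strand), and over 30 bases for Trib3 (chr2:152344028-152344057, minus strand).
Atf3: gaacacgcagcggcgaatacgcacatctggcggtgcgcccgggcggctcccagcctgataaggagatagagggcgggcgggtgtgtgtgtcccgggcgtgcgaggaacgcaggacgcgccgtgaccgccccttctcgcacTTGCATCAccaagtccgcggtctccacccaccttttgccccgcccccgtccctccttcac
Chac1: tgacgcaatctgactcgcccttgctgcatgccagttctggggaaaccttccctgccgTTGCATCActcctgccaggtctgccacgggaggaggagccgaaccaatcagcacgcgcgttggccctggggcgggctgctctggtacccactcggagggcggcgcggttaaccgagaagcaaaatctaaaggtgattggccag
Fgf21: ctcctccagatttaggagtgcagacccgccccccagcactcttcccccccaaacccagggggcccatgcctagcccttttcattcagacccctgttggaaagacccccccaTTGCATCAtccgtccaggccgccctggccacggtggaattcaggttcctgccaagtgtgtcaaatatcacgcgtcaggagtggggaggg
Trib3: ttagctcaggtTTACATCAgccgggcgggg
The cAMP response element TGACGTCA was found in 0 of the 11 windows, against 1.79% of all windows. A match of letters is not evidence of binding, and the absence of these letters says nothing of elements elsewhere.

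Control libraries held 2867067 to 3234729 counts, 499334 to 586461 of them nuclear, and knockout libraries 1062030 to 1227997, with 838015 to 910826 nuclear. Of the nuclear counts 80.6% to 84.9% lay in 5 loci that collect rRNA reads, which leaves 76949 to 109351 counts in controls and 126339 to 164004 in knockouts for all other nuclear genes. Levels are given as CPM, a count divided by the TMM-scaled nuclear library size and expressed per 1e6, since mtDNA transcripts made up 79.5% to 83.5% of control and 21.1% to 25.8% of knockout counts. A single count stood for 1.59 to 2.20 CPM in controls and 1.03 to 1.36 CPM in knockouts. Polrmt had 3, 2 and 1 counts in controls and 2, 5 and 1 in knockouts, and gene-level counts do not resolve exon 3, so they check neither the deletion nor the labels. All 8 markers of cardiomyocytes were detected, with a summed level of 11338 to 13494 CPM in controls and 10678 to 11547 CPM in knockouts. In such bulk samples fewer cells of a type and less RNA per cell cannot be told apart, and the values describe transcripts that came down with crude mitochondria.

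Counts were found for 8 of the 9 genes, and all 8 had a higher pooled level in knockouts than in controls. The 9 genes together held 37 counts in the control group and 279 in the knockout group. In 6 of them every knockout lay above every control. That held for 10.3% of the 8851 nuclear genes with at least 8 counts, the total of the rarest detected member, and the reverse for 9.37%. The 95% counting interval of the ratio of knockout to control lay above 1 for 7 of them, against 7.78% of the same 8851 genes, and below 1 for 7.37% of those. Such intervals cover counting error only and not the spread between mice.

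Of the 9 genes, Atf5 alone passed the low-count filter, through its knockout counts, and it rose (edgeR quasi-likelihood test on 2351 filtered nuclear genes, Benjamini-Hochberg adjusted p under 0.05, met in the higher direction by 8.46% of tested genes). DESeq2 also called it higher, as it did 3.96% of tested genes. The edgeR fit called 199 genes higher and 161 lower. With nuclear library sizes alone it called 142 and 177, and with total library sizes 2313 and 4. When no filter was applied, 4 of the 8 detected genes were called higher, namely Atf4, Atf5, Trib3 and Gdf15, against 1.27% of all 14207 genes in that fit and 2.03% of the 8851 genes with at least 8 counts. This fit called 180 genes higher and 99 lower, or 115 and 110 with nuclear library sizes alone and 6487 and 4 with total ones. A filter on total library sizes with mtDNA rows kept in passed these 4 members, all of them through their knockout counts. The 4 calls made there (6.66% of 3363 genes) are therefore no independent support. The other 4, Atf3, Ddit3, Chac1 and Sesn2, had fitted changes above 0 that did not pass. The median fitted log2 fold change of the 8 was 3.63, against 0.04 over all genes in the fit, and for genes without control counts the fitted value depends on the prior count.

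**Figure D1:**
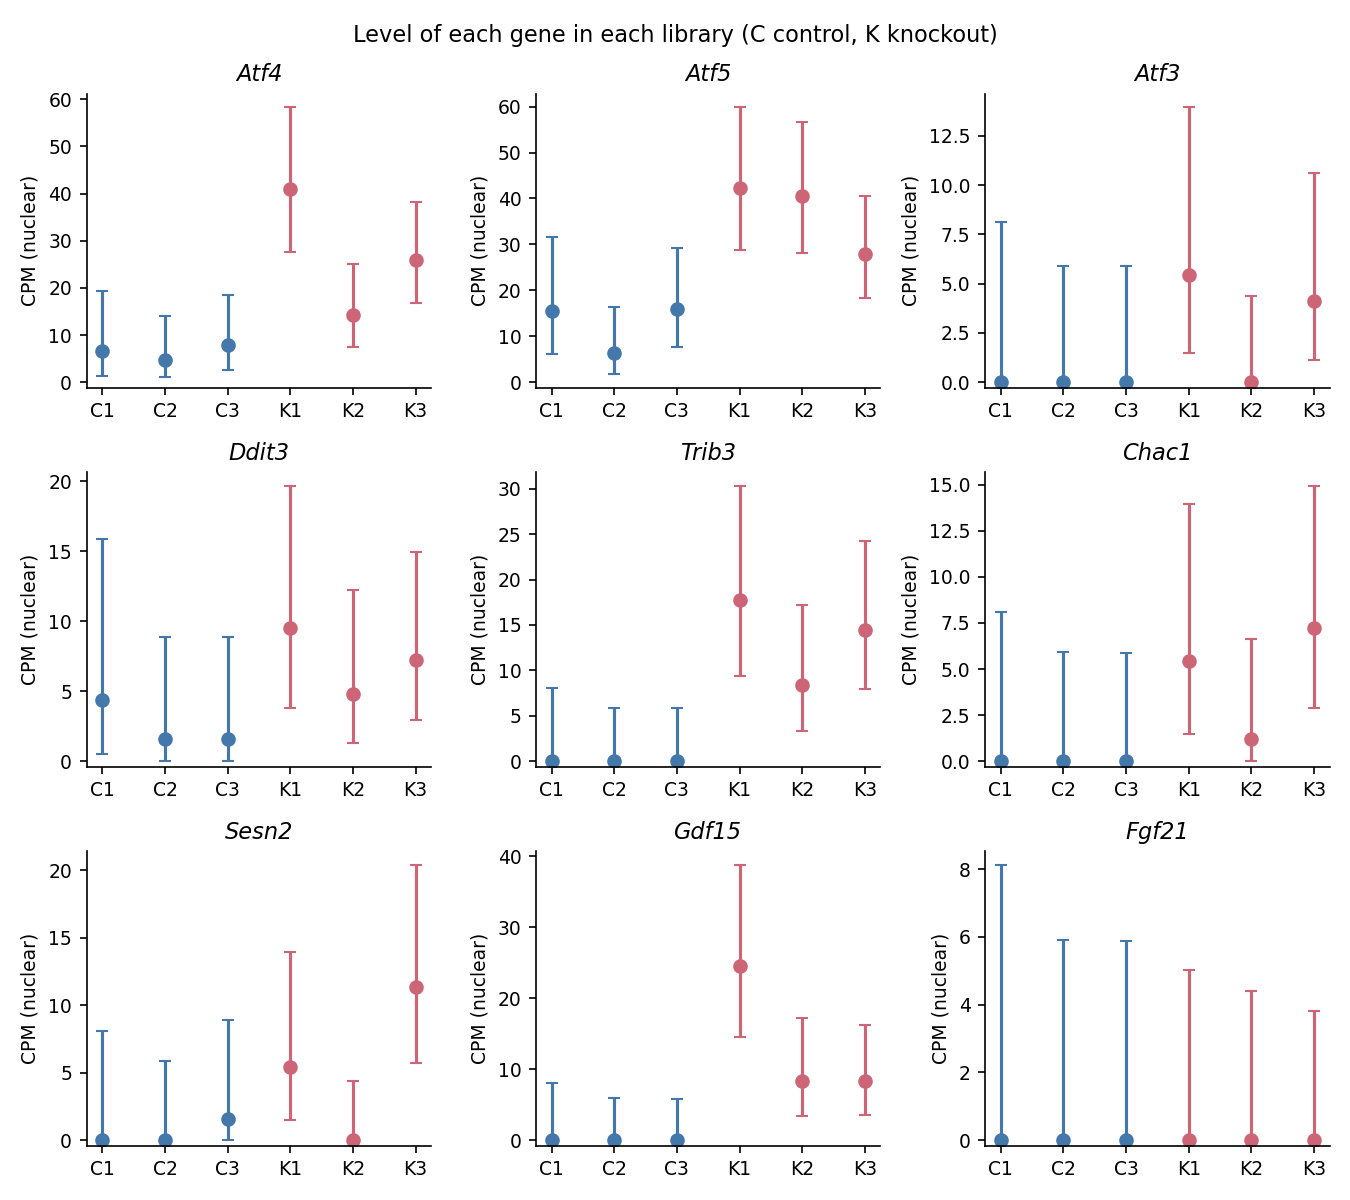
Level of each gene in CPM of TMM-scaled nuclear counts (vertical axes, each with its own range) in the control libraries (C1 to C3, blue) and the knockout libraries (K1 to K3, red), with the 95% Poisson interval of each count as bars. Atf4, Atf5, Ddit3, Trib3, Chac1 and Gdf15 have all knockouts above all controls, and Fgf21 lies at 0 throughout.

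Atf4 (ENSMUSG00000042406, chr15:80255184-80257541, plus strand), the central factor of the response, had 3, 3 and 5 counts in controls and 30, 12 and 25 in knockouts. All knockouts lay above all controls, and knockout 2 was the lowest of them at 14.3 CPM, against 40.9 in knockout 1 and 25.9 in knockout 3. Its mean went from 6.45 ± 1.59 to 27.0 ± 13.3 CPM (SD, n = 3 each), a ratio of summed counts of 4.10 (95% interval 2.15 to 8.60). Without the low-count filter the log2 fold change was 2.04 ± 0.43 SE (edgeR adjusted p = 2.39e-04). The authors' deposited table gives 2.06 for the log2 fold change of Atf4, with a false discovery rate of 9.13e-04.

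Atf5 (ENSMUSG00000038539, chr7:44812256-44816658, minus strand), a relative of ATF4 that is linked to the mitochondrial unfolded protein response, had 7, 4 and 10 counts in controls and 31, 34 and 27 in knockouts. Its knockout values of 42.2, 40.5 and 27.9 CPM all lay above the highest control, at 15.9 CPM. The mean went from 12.6 ± 5.35 to 36.9 ± 7.81 CPM (SD, n = 3 each), and Atf5 rose by 1.55 ± 0.33 SE on the log2 scale (adjusted p from edgeR 2.80e-04, DESeq2 adjusted p = 0.0238). Leaving out single libraries gave log2 fold changes from 1.19 without control 2 to 1.81 without control 3. Exons of Atf5 share 82 bases with Il4i1 on the opposite strand, a gene with 1 count over all libraries. The authors' deposited table gives a log2 fold change of 1.59 for Atf5, with a false discovery rate of 7.77e-05.

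The other leucine zipper factors were rarer. Ddit3 (ENSMUSG00000025408, chr10:127290774-127296288, plus strand), which encodes CHOP, a factor of prolonged stress, had 2, 1 and 1 counts in controls and 7, 4 and 7 in knockouts. The groups did not overlap, but the lowest knockout, at 4.77 CPM, lay close to the highest control, at 4.40 CPM. The ratio was 3.03 with a 95% interval from 0.997 to 12.3, and the edgeR adjusted p without the low-count filter was 0.541. Exons of Ddit3 share 68 bases with Mars, which lies on the opposite strand and held 63 counts over all libraries, and without knowledge of the strand setting reads of the shared part cannot be told apart. The authors' deposited table gives a log2 fold change of 1.55 for Ddit3 and a false discovery rate of 0.200.

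Atf3 (ENSMUSG00000026628, chr1:191170296-191218039, minus strand), an early stress factor that is also induced by other signals, had no count in any control and 4, 0 and 4 counts in knockouts. Knockout 2 thus lay with the controls. The pooled level in knockouts was 1.79-fold that of a control group with 3 counts, and the edgeR adjusted p without the low-count filter was 0.373. The 95% interval of the ratio began at 1.15, and it included 1 without any single library other than knockout 2. Among 1819 nuclear genes with no count in controls and at least 1 in knockouts, 53 had as many knockout counts as Atf3 or more.

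Of the effectors, Trib3 (ENSMUSG00000032715, chr2:152337422-152344032, minus strand), a pseudokinase that binds ATF4 and limits its activity, had no count in any control and 13, 7 and 14 counts in knockouts. Its values of 17.7, 8.34 and 14.5 CPM were all above the 1.76 CPM that 3 counts over the control group would give. Pooled over knockouts, Trib3 was 7.62-fold higher than such a control group. Its 95% counting interval began at 5.87, and the bound was 4.82 without control 3 and 4.83 without control 2. Without the low-count filter Trib3 was called higher, with an edgeR adjusted p of 1.14e-05 and a highest value of 7.11e-04 when single libraries were left out. The other tribbles genes were not called higher. Trib1 had 11 counts over controls and 13 over knockouts, and Trib2, the tribbles gene that passed the filter, changed by -0.81 ± 0.41 SE on the log2 scale without passing the test (adjusted p from edgeR 0.176).

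Chac1 (ENSMUSG00000027313, chr2:119351229-119354381, plus strand), which encodes an enzyme that breaks down glutathione, had no count in any control and 4, 1 and 7 counts in knockouts. All knockouts were above all controls, but knockout 2 by 1 count. Chac1 was 2.69-fold higher against 3 control counts, and the edgeR adjusted p without the low-count filter was 0.133. The 95% interval of its ratio, from 1.87 upwards, began at 0.995 without knockout 3, where the bound was 1.81. The bound was 1.71 without control 2 and 1.70 without control 3. Chac2, its relative, had 1 count in controls and 2 in knockouts.

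Sesn2 (ENSMUSG00000028893, chr4:132492032-132510501, minus strand), which encodes a sestrin that restrains mTORC1 and is known as a target of both ATF4 and p53, had 0, 0 and 1 counts in controls and 4, 0 and 11 in knockouts. The groups overlapped, since knockout 2 had no count and control 3 had 1. The ratio was 10.1 with a 95% interval from 1.55 to 425, and the edgeR adjusted p without the low-count filter was 0.218. Most of the knockout counts came from knockout 3, and without it the ratio was 4.34, with an interval from 0.430 to 214. Without control 2 the ratio was 6.40 and its interval began at 0.984. Without control 3, the library with the control count, the bound was 2.13. In the same family Sesn1 had 33 counts over controls and 59 over knockouts (edgeR adjusted p = 0.648), and Sesn3 had 2 and 12.

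Gdf15 (ENSMUSG00000038508, chr8:70629393-70632456, minus strand), the mitokine that acts on food intake through a receptor in the hindbrain, had no count in any control and 18, 7 and 8 counts in knockouts. Knockout 1 stood highest at 24.5 CPM, against 8.34 CPM in knockout 2 and 8.27 CPM in knockout 3, and all were above the controls. Gdf15 was 7.40-fold higher against 3 control counts, with a 95% counting interval from 5.69 upwards. The bound was 4.68 without control 3, 4.69 without control 2 and 4.73 without knockout 1. Without the low-count filter it was called higher (edgeR adjusted p = 1.67e-05, at most 0.00904 when single libraries were left out). Of the 1819 genes absent from the controls, 4 had 33 or more knockout counts. Those were Asns with 79, Mthfd2 with 67, Trib3 with 34 and Gdf15 with 33, of which Asns and Mthfd2 are ATF4 targets of amino acid and one-carbon metabolism that were named after their values were seen.

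Fgf21 (ENSMUSG00000030827, chr7:45613886-45615490, minus strand), the other mitokine, which acts on metabolism through FGF receptors with beta-Klotho, had 0 counts in each of the 6 libraries. A count of 0 allows up to 1.76 CPM in the control group and 1.18 CPM in the knockout group (3 counts over each group), so Fgf21 was not detectable at this depth. Its exons span 951 bases, the fewest of the 9 genes. The composite element before its start, shown above, has the same 8 letters as in Atf3 and Chac1.

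**Figure D2:**
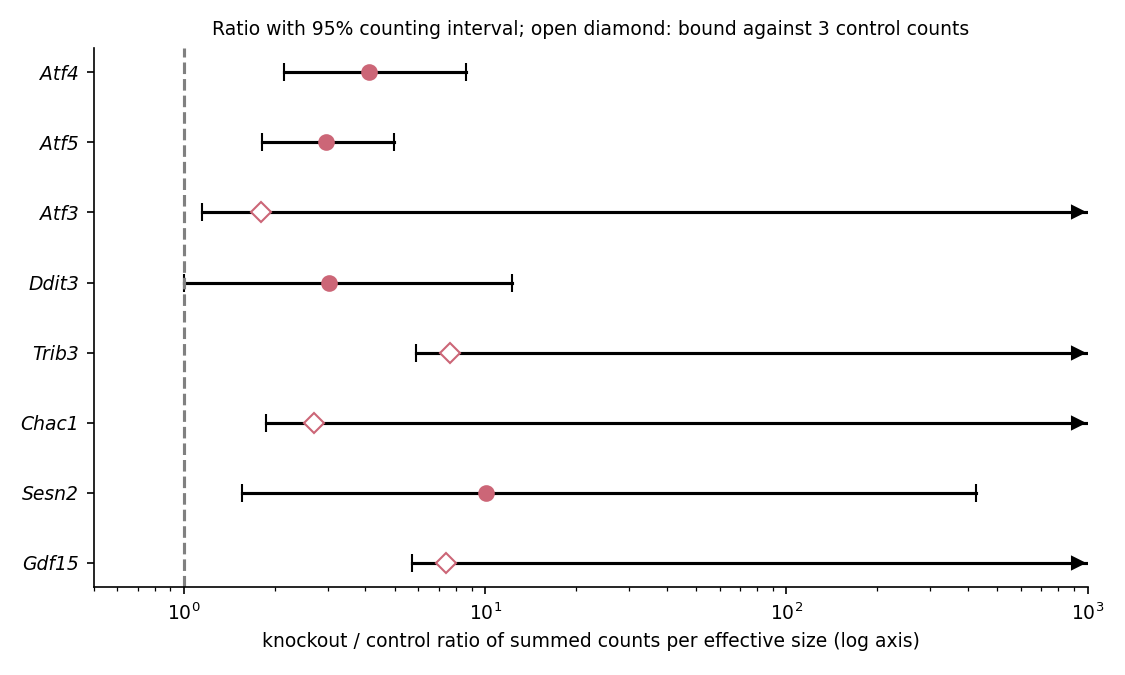
Ratio of knockout to control (horizontal log axis) of summed counts per effective nuclear library size for the 8 detected genes, with 95% counting intervals as lines. Filled circles are ratios, open diamonds are bounds against 3 control counts for genes with no control count, and arrows mark intervals with no upper end. The intervals of Trib3 and Gdf15 begin highest, at 5.87 and 5.69, and that of Ddit3 begins at 0.997.

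Levels of different genes were compared per kilobase of merged exons, with the 3 libraries of a group pooled. In knockouts Atf5 had the highest level at 18.2 CPM per kilobase (95% Poisson interval 14.7 to 22.3), followed by Atf4 at 11.2 (8.67 to 14.2), whose interval does not overlap that of Atf5. Of the single libraries, the intervals lay apart in knockout 2, where Atf5 had 20.3 (14.1 to 28.4) and Atf4 6.06 (3.13 to 10.6) CPM per kilobase, and overlapped in knockouts 1 and 3. Gdf15 at 7.02 (4.83 to 9.85) and Trib3 at 6.30 (4.36 to 8.80) CPM per kilobase came next, with intervals that overlapped each other, and that of Gdf15 overlapped that of Atf4. Neighbours also overlapped in the rest of the order, which was Ddit3 at 4.14, Chac1 at 2.89, Sesn2 at 1.70 and Atf3 at 1.46 CPM per kilobase. In controls Atf5 again stood first at 6.17 CPM per kilobase, with Atf4 at 2.73 and Ddit3 at 1.37, and the intervals of neighbours overlapped. Atf4 and Atf5 together made up 86.5% of the member counts in controls (32 of 37) and 57.0% in knockouts (159 of 279).

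**Figure D3:**
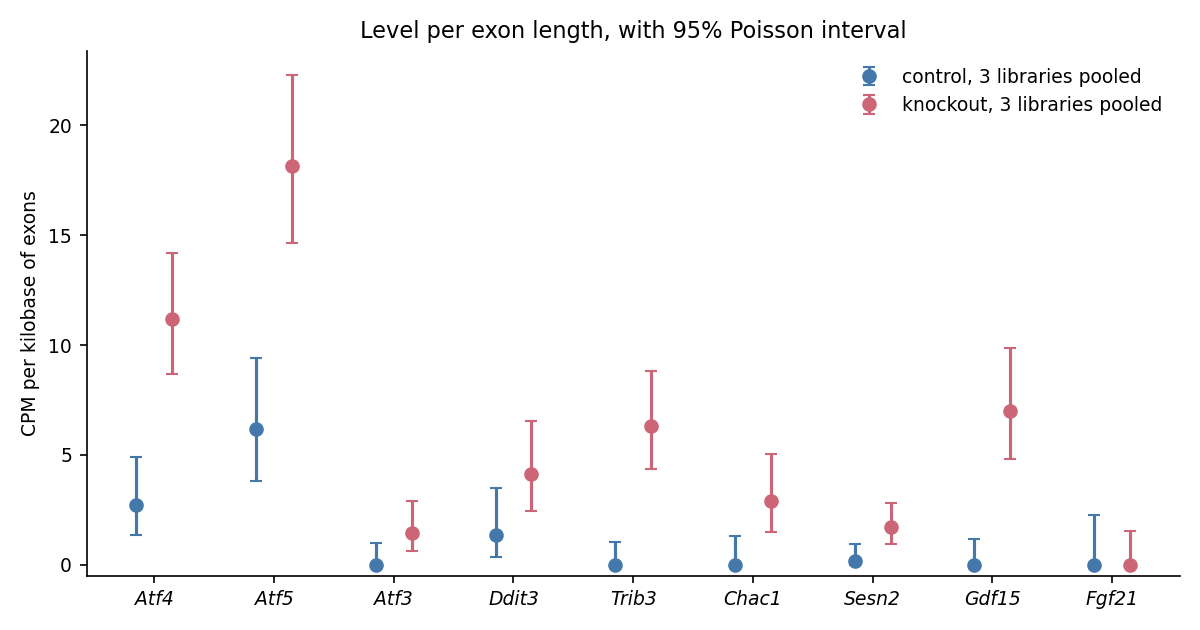
Level per exon length in CPM per kilobase of merged exons (vertical axis) for each gene, pooled over the 3 control libraries (blue) and the 3 knockout libraries (red), with 95% Poisson intervals. Atf5 is highest in both groups, at 6.17 and 18.2, and in the controls Atf3, Trib3, Chac1, Gdf15 and Fgf21 lie at 0.

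The knockouts differed among themselves in a way that most of these genes shared. The summed level of the 9 genes was 151, 77.5 and 107 CPM in knockouts 1 to 3, and 26.4, 12.8 and 27.1 CPM in controls. With Atf5 set aside, a split made after the values were seen, the other genes summed to 109 CPM in knockout 1, 36.9 in knockout 2 and 78.6 in knockout 3, while controls lay between 6.39 and 11.1 CPM. Atf5 had 34 counts in knockout 2 and 31 in knockout 1, so that the ratio of Atf5 to Atf4 counts was 2.83 in knockout 2, against 1.03 and 1.08 in the other knockouts and 1.33 to 2.33 in controls. Nuclear counts were 838015, 857217 and 910826 in knockouts 1 to 3, and a part of depth in these differences was not tested. The listed ATF4 target enzymes, which share no gene with the 9, summed to 387, 336 and 337 CPM in knockouts 1 to 3, a sum in which Got1 alone held 145, 163 and 164 counts. The listed transporters summed to 226, 172 and 206 CPM and the listed regulators to 328, 255 and 320 CPM, so that knockout 2 was the lowest in all 3 lists, by little in the enzymes. Whether knockout 2 differs from the others beyond chance was not tested.

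**Figure D4:**
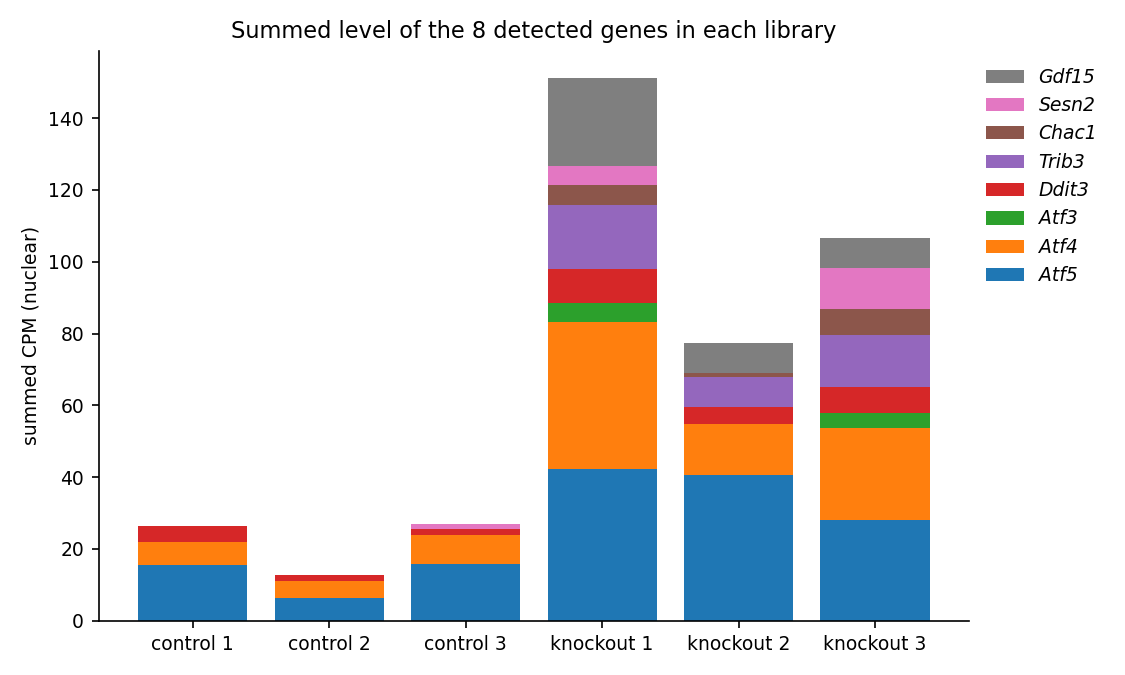
Summed level in CPM of TMM-scaled nuclear counts (vertical axis) of the 8 detected genes in each library, stacked by gene. The bars of knockouts 1 to 3 reach 151, 77.5 and 107 CPM and those of controls at most 27.1 CPM, and the Atf5 part is as large in knockout 2 as in knockout 1.

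Further genes of the response were read from 7 lists of its kinases, eIF2 subunits, phosphatase regulators, leucine zipper partners and ATF4 targets. Of 63 in the files 61 had counts, and without the low-count filter edgeR called 13 of them higher and 0 lower, against 1.27% of all genes called higher in that fit, with a median log2 fold change of 0.45 against 0.04. The filter kept 21, several of them through their knockout counts, of which 12 were called higher and 0 lower (8.46% and 6.85% of all tested genes). Among those that sense and relay stress, the 4 eIF2 kinases with Oma1, Dele1 and an activator of the kinase GCN2, 2 of 7 passed the filter and neither passed the test, with 0 of the 7 at an unadjusted p under 0.05 in the fit without the filter and 0 called by DESeq2. Dele1, the messenger that carries mitochondrial stress to the kinase HRI, had 40 counts over controls and 47 over knockouts (log2 fold change -0.33 ± 0.33 SE), and Eif2ak1, which encodes HRI, had 13 and 18. Of the eIF2 and eIF2B subunits Eif2s2, the beta subunit of eIF2, was the 1 that passed the filter, through its knockout counts. Eif2s2 rose by a log2 fold change of 1.30 ± 0.38 SE. Removing control 2, control 3 or knockout 3 ended its call (edgeR adjusted p up to 0.0847), and DESeq2 did not call it (adjusted p = 0.177).

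Known targets of ATF4 were among the genes called higher. Over all tested genes edgeR called 1.27% higher without the filter and 8.46% with it, and DESeq2 called 3.96% with it. Of the 13 listed enzymes with counts 7 were called higher without the filter, and 6 did not pass. With the filter 6 were tested and called (DESeq2 called 4), of which Asns, Mthfd2, Aldh18a1, Shmt2 and Aldh1l2 had few or no control counts and were kept through the knockouts, so that this count was in part set by the filter. Asns was at least 17.7-fold and Mthfd2 at least 15.02-fold higher against 3 control counts, Aldh18a1, an enzyme of proline synthesis, rose by a log2 fold change of 2.13 ± 0.45 SE, and Got1, the cytosolic aspartate aminotransferase, by 1.11 ± 0.16 SE. The calls of these 4 held without any single library, while Shmt2 lost its call without control 2 or knockout 1 and Aldh1l2 without all libraries but control 2 and knockout 2 (highest adjusted p 0.122 and 0.151). Of 9 amino acid transporters 4 were called higher without the filter, and 3 of the 4 that it kept (DESeq2 called 1). Slc7a5 and Slc3a2 had few control counts and were kept through the knockouts, so that this count too was in part set by the filter. Slc7a5, the light chain of the leucine transporter, went from 5 counts over controls to 72 over knockouts (log2 fold change 3.20 ± 0.49 SE). Slc3a2, its heavy chain, rose by 1.65 ± 0.46 SE, a call lost without knockout 1 (edgeR adjusted p = 0.0662). Slc38a2 rose by 0.53 ± 0.18 SE, a call that held without knockout 2 but without no other single library (highest edgeR adjusted p 0.110). Of 12 target regulators 1 was called higher without the filter and 2 of the 5 that it kept. Sqstm1, the autophagy receptor p62, rose by a log2 fold change of 1.39 ± 0.19 SE. Xpot, a tRNA exporter kept through its knockout counts, rose by 1.07 ± 0.37 SE, and was not called without the filter (edgeR adjusted p = 0.0865). The call of Xpot also failed once control 3, knockout 1 or knockout 3 was removed (edgeR adjusted p up to 0.364). The element TGATGNAA was present in the windows of 3 of 12 target enzymes with a RefSeq window (Asns, Got1 and Pycr1), 2 of 6 transporters (Slc1a4 and Slc7a11) and 4 of 10 regulators (Herpud1, Jdp2, Nupr1 and Vldlr, none of them called higher). Of all windows 3.97% held it. It was present in 1 of 7 eIF2 and eIF2B subunits (Eif2s3x) and 1 of 10 leucine zipper partners (Jdp2 again). The ATF6 and XBP1 branches and the p53 targets had 0 of 10 each and the immediate early genes 0 of 9. Given the share over all windows, such counts of 0 are no contrast.

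Other stress routes were read beside these. In the list of endoplasmic reticulum stress genes of the ATF6 and XBP1 branches, 4 of 12 passed the filter and 0 were called by edgeR or DESeq2, with 2 at an unadjusted p under 0.05 and a median log2 fold change of -0.13. Hspa5, its main chaperone, changed by 0.40 ± 0.17 SE on the log2 scale (adjusted p from edgeR 0.103). Of 12 p53 targets 2 passed the filter and 0 were called by edgeR or DESeq2, with 0 of the 2 at an unadjusted p under 0.05. Without the filter edgeR called 0 of the 12, with 2 at an unadjusted p under 0.05. Their median log2 fold change in that fit was 0.84, against -0.03 for the list of the ATF6 and XBP1 branches and 0.04 over all genes. Cdkn1a, below the filter, had 6 counts over controls and 28 over knockouts (ratio 3.14, 95% interval 1.28 to 9.27, edgeR adjusted p 0.232 without the filter). Btg2, on the lists of p53 targets and of immediate early genes, had 5 and 30 counts (ratio 4.04, interval 1.55 to 13.3), with an edgeR adjusted p of 0.0887 without the filter, and was called higher in the fit with mtDNA rows (adjusted p = 0.0150). Of 12 immediate early genes 2 passed the filter. Egr1, kept through its knockout counts, was called higher, from 11 counts over controls to 94 over knockouts (log2 fold change 2.49 ± 0.38 SE), and Jun was not (-0.19 ± 0.40 SE). Among 12 other secreted factors of the heart 5 passed the filter, and Nppa and Nppb, the natriuretic peptides, were called higher. Nppb was kept through its knockout counts. For comparison, 8.46% of all tested genes were called higher. The log2 fold change of Nppb was 3.28 with all libraries, 4.35 at most and 2.63 at least when single ones were left out.

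Of 7 listed receptors of the mitokines 4 had counts. Gfral and Klb, which give GDF15 and FGF21 their target tissues, and Fgfr4 had 0 counts in all libraries. Ret, the signalling partner of GFRAL, had 6, 7 and 7 counts in controls and 1, 0 and 3 in knockouts. All knockouts lay below all controls, the ratio was 0.135 (95% interval 0.0334 to 0.402), and without the low-count filter Ret was lower relative to nuclear transcripts (edgeR adjusted p = 0.0132). With total library sizes the fitted log2 fold change of Ret without the filter was -0.86. Fgfr2 had 1 and 2 counts and Fgfr3 5 and 12 over controls and knockouts. Fgfr1 had 39 counts over controls and 37 over knockouts (log2 fold change -0.64 ± 0.35 SE, adjusted p from edgeR 0.212).

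**Figure D5:**
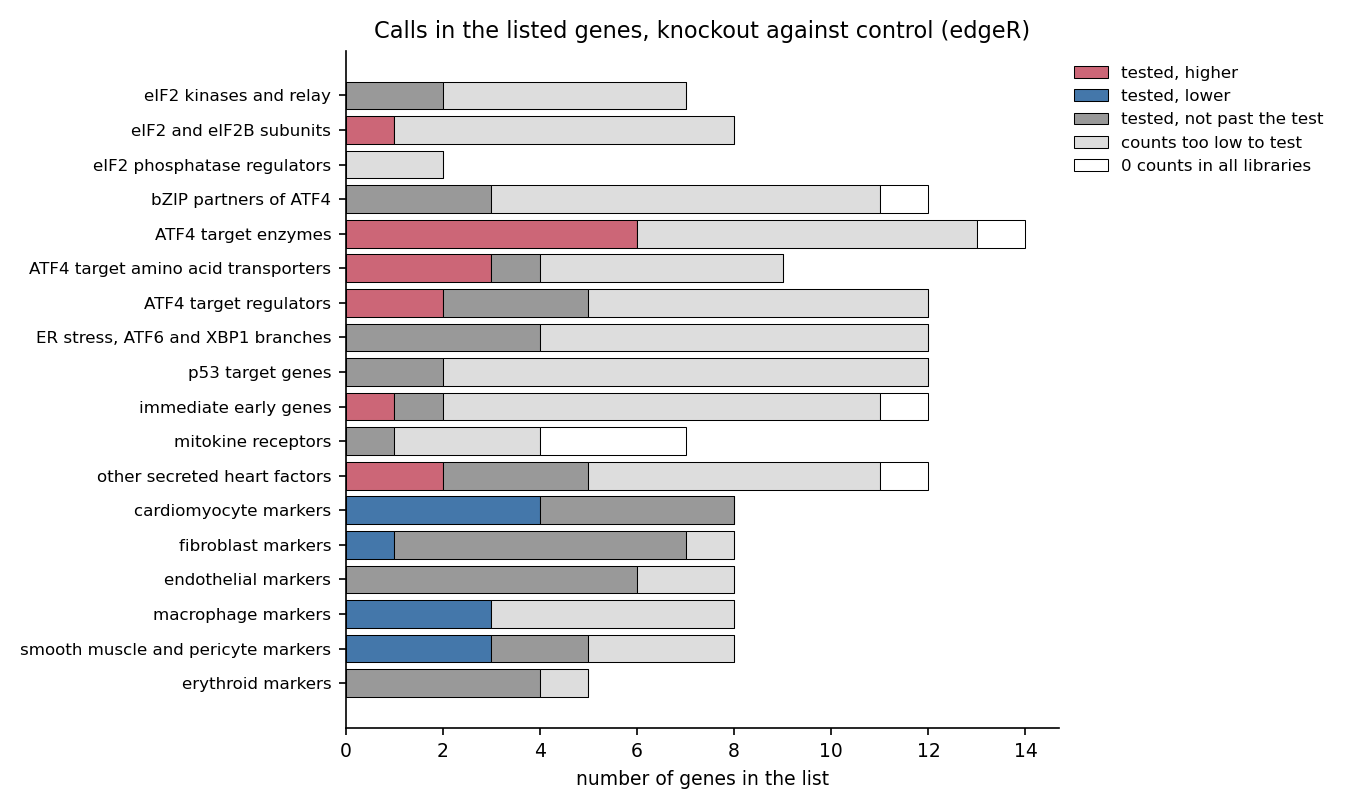
Number of genes of each list (horizontal axis) that were called higher or lower, did not pass the test, had counts too low to test or had 0 counts in all libraries, knockout against control by edgeR. Target enzymes and transporters of ATF4 are called higher in 6 and 3 genes, and the lists of kinases, ATF6 and XBP1 branches and p53 targets have no call.

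Markers of other cell types moved in part with the groups. Of the 2351 tested genes edgeR called 6.85% lower, and DESeq2 called 50 lower. Macrophage markers summed to 133 to 200 CPM in controls and 50.4 to 71.4 CPM in knockouts. All 3 that passed the filter, Csf1r, Mrc1 and Lyz2, were called lower, and DESeq2 called 1 of the 3. They were kept through their control counts, so that this count was in part set by the filter. The call of Lyz2 was lost without control 1 or knockout 1 (highest edgeR adjusted p 0.270). Without the filter edgeR called 3 of 8 macrophage markers lower, against 99 of all 14207 genes. Lyz2 was not among them (edgeR adjusted p = 0.0576). Smooth muscle and pericyte markers summed to 450 to 577 CPM in controls and 259 to 399 CPM in knockouts, with 3 of 5 called lower, Acta2 not without control 2 (0.0908) and Pdgfrb not without knockout 1 (0.0618), by edgeR adjusted p. By DESeq2 1 of the 5 was called lower. Of fibroblast markers 1 of 7 was called lower, namely Dpt, which was kept through its control counts. Of 6 endothelial and 4 erythroid markers none was called by edgeR or DESeq2, with 2 and 0 at an unadjusted p under 0.05. With mtDNA rows kept in, edgeR also called Kdr, an endothelial receptor, and Pdgfra, a fibroblast marker, lower (adjusted p = 0.0369 and 0.0302). Of 8 cardiomyocyte markers 4 were called lower (DESeq2 called 3), Tnnt2 not without control 1, control 3 or knockout 1 (highest edgeR adjusted p 0.0559). These falls are relative to nuclear transcripts, as all of the markers called in the filtered fits had fitted changes above 0 with total library sizes. C1qb, a macrophage marker called lower without the filter (22 counts over controls and 4 over knockouts, edgeR adjusted p = 0.00454), had a fitted log2 fold change of -0.99 with total library sizes. Their part in the values of the 9 genes was not tested.

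Among tested genes outside the 9, the log2(CPM + 1) values most like those of the summed 9 over the 6 libraries belonged to Ccnd2 (Pearson r 0.996), Kpna1 (0.994), Hsp90ab1 (0.993), Vaultrc5 (0.992) and Pfkp (0.989). Ccnd2, a D-type cyclin, had 52.8, 43.2 and 54.1 CPM in controls and 116, 88.2 and 102 CPM in knockouts (log2 fold change 1.03 ± 0.19 SE, adjusted p from edgeR 1.70e-05). Such r values are a description over 6 libraries that fall into the study's groups, and 126 of the 2351 tested genes had an r of 0.9 or more.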

How the data were processed

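Crude heart mitochondria of 3 control and 3 knockout mice gave 1 library each. TruSeq libraries of miRNeasy-purified RNA were read from both ends on a MiSeq, per the labels' protocols. The submitters' processing notes name HISAT 0.1.6 and featureCounts 1.3.5-p4, then edgeR 3.11.2 under R 3.2.0, and the build GRCm38. How strand and multiply aligned reads were handled, and which annotation was counted, is not stated in these sources. The authors deposited raw counts per gene, used here, and normalised values, not used here. Per the file headers, the authors' deposited table gives a log2 fold change, a likelihood ratio score and a p-value with false discovery rate.

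The members and lists were chosen with earlier results of these data known. The 35 mtDNA rows were set aside. Nuclear counts were filtered (filterByExpr, minimum count 10, minimum total 15), TMM-scaled and tested with edgeR 4.0.16 in R 4.3.3 (quasi-likelihood, robust, 2-sided), with DESeq2 1.42.0 as an alternative. The SE is the one implied by the F statistic. Since that filter kept 1 member, the fit without it is given beside it. Ratios of summed counts carry exact conditional 95% intervals, and bounds use 3 counts over a group. For genes without control counts the bound leaves out the counting error of the knockouts, so that the interval can begin below it. An exact permutation test of 3 against 3 gives no p below 0.1, which the 6 members whose groups did not overlap reached. Positions and exon lengths are from GENCODE M21 (GRCm38) and promoter sequences from RefSeq (GRCm38.p6), in which all 9 members had an entry. Transcripts of the members were searched with blastn 2.17.0 for copies in other genes (75 bases at 90% identity), and only overlapping genes were found.

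The genes named are the members, up to 4 called genes per list with the smallest adjusted p, and the 5 most alike in pattern. Others were named after their values were seen. Replicates were compared and differed beyond sampling noise (chi-square per degree of freedom 1.30 to 6.26, nuclear genes), so none was a copy. Nothing in the labels says that the samples came from separate litters or days, and p-values measure the spread between these samples. The edgeR and DESeq2 fits were tried on simulated counts of the genes that passed the filter. The fit without the filter, genes with no control count and the bounds were not covered by it. Alternatives were DESeq2, no filter, all genes with mtDNA rows, other scalings, leaving out 5 loci that collect rRNA reads, the replicate number as a block, and leaving out each library.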

Additional observations from a re-analysis of the deposited data

How the results depend on the processing

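The direction of all 8 detected genes was the same under all alternatives run. Atf5 was called higher in each of them, with log2 fold changes from 1.19 to 1.81 when single libraries were left out. In the fit without the low-count filter, added alternatives chosen after seeing the data gave the same 4 calls with nuclear library sizes alone, without 5 rRNA-collecting loci, with the replicate block and without each library. With total library sizes 8 were called, with log2 fold changes of 5.33 for Atf3, 3.43 for Ddit3, 5.90 for Chac1 and 4.71 for Sesn2, and all genes of that fit had a median of 1.94 (-0.08 with nuclear sizes alone). In the filtered fit these medians were 1.98 and -0.10. DESeq2 without the filter called 2, Atf4 and Atf5, and gave the other 6 no adjusted p (unadjusted p = 4.62e-05 for Trib3 and 5.70e-05 for Gdf15). The ratio of Ddit3 was 12.1 with total library sizes. When single libraries were left out, ratios or bounds ran from 1.13 to 2.68 for Atf3, 2.55 to 4.44 for Ddit3 (interval above 1 without control 1 or knockout 2), 1.70 to 3.68 for Chac1, 4.82 to 9.04 for Trib3, 4.68 to 9.05 for Gdf15 and 2.13 to 15.1 for Sesn2.

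Over all genes, 99 were lower without the filter, DESeq2 called 93 higher and 50 lower, and total library sizes gave 2313 and 4. Single libraries left out gave 142 to 180 higher and 103 (without knockout 1) to 139 lower. Of all 118 genes listed beside the members, p53 targets, immediate early genes, receptors and other secreted factors included, 15 of 35 tested were called higher at first, 35 were higher with total library sizes and 9 with DESeq2, and 1 was lower without the filter (Ret) or with mtDNA rows (Vldlr). Same-numbered libraries did not deviate together (correlations -0.01, 0.01 and 0.07), and the numbers are not taken as pairs. With the replicate block the log2 fold change of Atf5 was 1.54 and 203 genes were higher and 162 lower. Depth is a limit, since 7 of the 9 genes had fewer than 35 counts in either group.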
